A study of Mus musculus with 2 samples.

Results

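The cells described here are thymic T cells, sorted as regulatory T (Treg) lineage cells, that carried RNA of S100a4 and S100a6 and little RNA of the core Treg genes. They numbered 84 of the 4453 cells assigned to 1 genotype, or 1.89%. A member had at least 3 unique molecular identifiers (UMIs, 1 per captured RNA molecule) of S100a4 and S100a6 together. It had 0 UMIs of Lyz2, C1qb and Jchain, which mark macrophages and plasma cells, and 0 of the proliferation genes Mki67 and Top2a. Its sum over the Treg genes Ctla4, Gpr83, Lrrc32 and Nrp1 was at most 2 UMIs. Levels of these genes chose the cells, so they are given as a description.

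S100a4 and S100a6 are small calcium-binding proteins that act on the cytoskeleton and on annexins, and T cells gain their RNA as they pass from a naive to an effector or memory state. In the thymus, most CD4 T cells are newly made, while a minority are effector-like: recirculating Treg cells, which return from the periphery, and innate-like T cells such as NKT cells, which acquire effector programmes during development. Chemokine receptors such as Cxcr3 and Cxcr6 and the integrin chain Itgae are carried by such cells.

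Thymus cells came from 2 mice on the C57BL/6 background, 1 of genotype Foxp3eGFPxLta-/- and 1 of genotype Foxp3eGFP. Both carry a green fluorescent protein reporter of Foxp3, the lineage factor of Treg cells, and the Foxp3eGFPxLta-/- mouse, called Lta-/- here, also lacks Lta, which encodes lymphotoxin alpha. CD8+ and CD11c+ cells were depleted, live CD4+CD8-CCR6-CD3e+ cells with CD25, the reporter or both were sorted, and 20000 sorted cells of each genotype were pooled in 1 droplet capture aimed at 10000 cells. Recirculating Treg cells of the thymus commonly carry CCR6, so the CCR6- gate would remove many of them. Age and sex are not in the labels. The deposited matrix holds 4798 barcodes, of which 4638 passed a minimum of 500 detected genes and a mitochondrial share of 10% or less. A hashtag made up at least 80% of the hashtag counts in 2244 Lta-/- cells and 2209 Foxp3eGFP cells, and 185 cells carried both hashtags. Since each genotype is a single mouse, no test between genotypes was possible, and mouse, hashtag and genotype cannot be told apart. All intervals below are exact 95% intervals and cover counting error only.

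The labels and the deposited feature names number the hashtag antibodies differently, and the genotype was taken from the feature names. Lta, the deleted gene, was checked under that assignment. It had 46 UMIs in the 1565 Lta-/- cells below the S100 threshold, against 290 UMIs in the corresponding 1532 Foxp3eGFP cells, a log2 ratio of -2.65 (-3.13 to -2.20). The members themselves held 2 Lta UMIs in Lta-/- cells and 4 in Foxp3eGFP cells, too few to bear on the labels. The labels do not say which part of the gene is deleted.

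The filters acted in sequence. Of the assigned cells, 194 reached the S100 minimum, 173 of these had no macrophage or plasma cell UMIs, 117 had no proliferation UMIs, and 84 passed the limit on Treg genes. The members comprised 62 Lta-/- cells and 22 Foxp3eGFP cells. Their depth was close to that of other cells, at a median of 5453.5 UMIs against 5165 in the 3097 S100-low cells, which met the same rule except for an S100 sum below 3. Lta-/- members had a median of 5207.5 UMIs and Foxp3eGFP members 7192.5.

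The genes that define the population lie close together on chromosome 3, with S100a5 between them. Their promoter windows, taken from RefSeq on build GRCm38.p6, run from 250 bases before to 50 bases after the annotated start and are shown because RNA of these 2 genes chose the cells. The S100a4 window is chr3:90603520-90603819 and the S100a6 window is chr3:90612644-90612943, both on the plus strand. Capitals mark matches on either strand to 1 of 3 motifs: the TATA box TATAAA, the RUNX motif TGTGGTT and the AP-1 motif TGANTCA.
S100a4: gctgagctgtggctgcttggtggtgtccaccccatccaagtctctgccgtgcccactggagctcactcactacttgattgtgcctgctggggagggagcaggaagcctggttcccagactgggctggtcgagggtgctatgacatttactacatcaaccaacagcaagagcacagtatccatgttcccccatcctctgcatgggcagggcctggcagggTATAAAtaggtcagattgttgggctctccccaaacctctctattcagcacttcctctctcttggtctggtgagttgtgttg
S100a6: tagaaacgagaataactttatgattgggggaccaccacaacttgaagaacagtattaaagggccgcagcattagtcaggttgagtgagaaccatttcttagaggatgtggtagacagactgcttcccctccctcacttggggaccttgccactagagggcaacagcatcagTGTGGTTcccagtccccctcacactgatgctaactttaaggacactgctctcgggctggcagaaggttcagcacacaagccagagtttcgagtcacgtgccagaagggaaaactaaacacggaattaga
The S100a4 window held 1 match, the TATA box at position 220 of the window, and the S100a6 window held 1 match, the RUNX motif at position 172. TATAAA occurs in 13.6% of all 32851 promoter windows of this length, TGTGGTT in 5.27% and TGANTCA in 7.81%.

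S100a4 had 480 UMIs in the members and was found in 55 of 84 cells. S100a6 had 687 UMIs and was found in 77 of 84 cells. Both RNAs occurred together in 48 members, while 29 members had no S100a4 and 7 had no S100a6. The summed S100 UMIs ran from 3 to 69 per member, with a median of 8.5. Cells just inside the threshold, at a sum of 3, numbered 8, and cells just outside it, at a sum of 2, numbered 9. At the other limit, 21 members had a Treg-gene sum of 2, and 10 cells fell just outside it with a sum of 3. Of the 16 S100 genes in the matrix, 3 others were well measured in members. S100a10, the partner of annexin A2, was at 1308 counts per 1000000 UMIs (CPM) in members and 286 CPM in S100-low cells. S100a11 was at 804 CPM in members and 57.7 CPM in S100-low cells, and S100a13 at 260 CPM against 125 CPM. A further 9 S100 genes had 0 UMIs in the members, among them S100a8 and S100a9, which mark neutrophils.

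The other marker genes of the label, none of which the rule used, were then described. They were chosen with earlier results of these data known, so they are not an independent check of the label. At least 1 of Cxcr3, Cxcr6, Maf, Itgae and Klrd1 was detected in 94.0% of members, 5.17% of S100-low cells and 2.72% of the 294 Ccr9-high S100-low cells. The last have at least 3 UMIs of Ccr9, a receptor of young thymocytes that should lack these effector genes, and served as the measure of free RNA, at a median of 5574.5 UMIs. Unlike the S100-low cells, they had no limit on the Treg-gene sum. Maf, a transcription factor of effector and IL-10 producing T cells, was found in 59 of 84 members (70.2%, 59.3% to 79.7%), against 1.70% of Ccr9-high cells. With every cell thinned to 3000 UMIs, Maf was found in 53.2% of 79 members and 1.75% of 286 Ccr9-high cells. Cxcr3, a receptor for interferon-induced chemokines, was found in 37 members, and Cxcr6, the receptor of Cxcl16, in 29. Itgae, the alpha chain of CD103, was found in 17 and Klrd1, the NK receptor chain CD94, in 12. Cxcr6 was found in 3 of 19 gate-positive members and 15 of 28 innate-like members, classes that are defined further on, while Cxcr3 was found in 8 and 13 of them. No single marker covered the group: 26 members had 1 of these 5 genes, 35 had 2, 18 had at least 3 and 5 had none. The S100-high Treg-gene-high cells, which failed only the Treg-gene limit, numbered 33, and 97.0% of them had at least 1 of the 5 genes. Maf was found in 87.9% of these cells, Cxcr3 in 45.5%, Itgae in 27.3%, Cxcr6 in 24.2% and Klrd1 in 0%. In members the shares were 70.2%, 44.0%, 20.2%, 34.5% and 14.3%. Having at least 1 of these genes therefore does not separate members from those cells.

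Nearly all members had T cell receptor RNA. Cd3d, Cd3e or Cd3g was found in 83 of 84 and a constant segment of the alpha or beta chain in 82. Cd4 was found in 48 of 84 members (57.1%), close to the 58.9% of S100-low cells. Trav11 or Trav11d, the variable segments of invariant NKT cells, had 1 UMI in 1 member, and 3 prime libraries read such segments poorly.

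The exceptions were 3 Lta-/- members. Of these, 2 had no alpha or beta constant UMIs, 1 UMI of Cd3 each, and together all 63 UMIs of Siglech, a receptor of plasmacytoid dendritic cells, and all 51 of the lectin gene Cd209d. These cells had 106 and 65 UMIs of Tyrobp, the adaptor DAP12, and 66 and 55 of Cd74, the invariant chain of MHC class II. The third had no Cd3 UMIs and 6 constant-segment UMIs, and held all 217 UMIs of the granzyme gene Gzmc and all 5 of Ncr1, the NK receptor NKp46. Values without these 3 cells, which were singled out after their values were seen, are given beside several results.

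**Figure D1:**
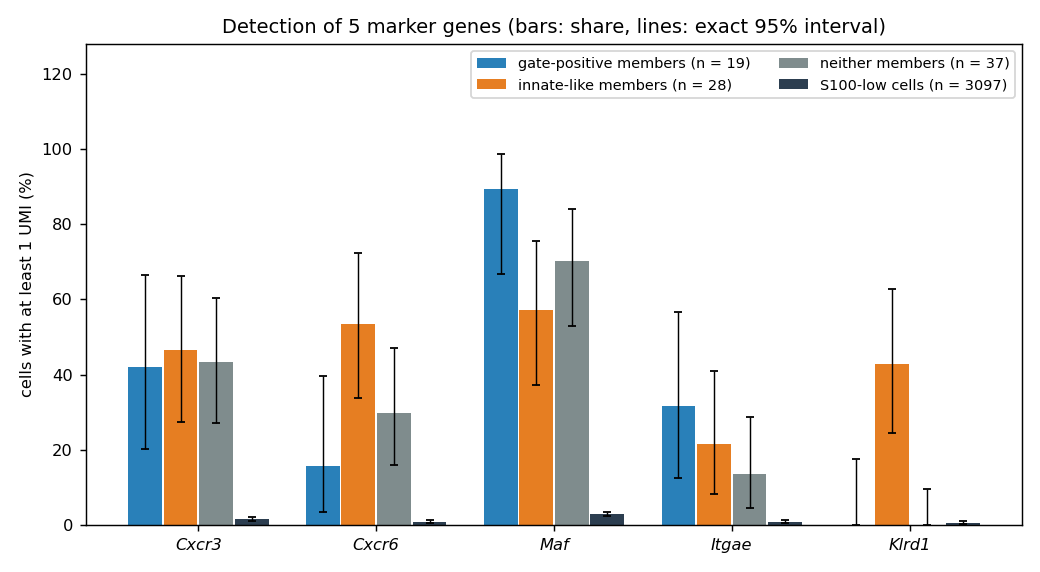
Share of cells with at least 1 UMI of 5 marker genes (vertical axis, percent) in gate-positive members (n = 19), innate-like members (n = 28), members of neither class (n = 37) and S100-low cells (n = 3097). Bars are shares and lines are exact 95% intervals; all 5 genes stay below 3% of S100-low cells, and Klrd1, which helps to define the innate-like class, is found in 42.9% of that class and in 0% of the other members.

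The members were split by the gate genes. Gate-positive members had at least 1 UMI of Foxp3 or Il2ra, the RNA of the reporter's gene and of CD25, and numbered 19. Innate-like members had neither and at least 2 UMIs over 8 genes of NK receptors, their adaptors and innate T cells (Zbtb16, Klrd1, Klrk1, Klrc1, Klrb1c, Nkg7, Fcer1g and Tyrobp), and numbered 28. The remaining 37 members met neither definition, although all were sorted for CD25 or the reporter. The split is shallow in places: 8 of the 19 gate-positive members had a single gate UMI, and 1 of them had enough innate UMIs for the other class. Foxp3 was found in 12 gate-positive members and Il2ra in 11, with both in 4. Of the innate-like members, 16 had at least 2 of the defining genes, 7 were defined by the cytotoxic granule gene Nkg7 alone and 4 by Zbtb16, which encodes PLZF, alone.

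Gate-positive members differed from innate-like members in costimulatory receptors and in effector and cytotoxic genes. The 2 classes together had 50 or more UMIs for 1019 genes, and of these 39 were at least 2-fold higher in gate-positive members (3.83%) and 39 at least 2-fold lower (3.83%). Tnfrsf4, the costimulatory receptor OX40, had the largest ratio among the named genes, with 60 UMIs in 11 of 19 gate-positive members, against 20 UMIs in 6 of 28 innate-like members. That is 552 CPM against 78.5 CPM, a log2 ratio of 2.81 (2.06 to 3.62). S100-low cells were at 504 CPM, near the gate-positive level. Ifngr1, a chain of the interferon gamma receptor, was at 580 CPM in gate-positive members and 130 CPM in innate-like members, log2 2.16. Tnfrsf18, the receptor GITR, had a log2 ratio of 1.86 with UMIs in 13 of 19 and 20 of 28 cells, so its difference lay in UMIs per cell and not in the share of cells. In Foxp3eGFP cells alone, with 5 gate-positive members, the ratio turned to -0.62, and that of the costimulatory receptor Cd27, at 1.51 in all members, to -1.31.

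Maf was found in 17 of 19 gate-positive members and 16 of 28 innate-like members, and its log2 ratio was 1.84 (1.24 to 2.45). The other named genes on this side had log2 ratios from 1.45 to 2.00. They were Rgs1, a regulator of G protein signalling, the forkhead factor Foxp1, the GTPase Rhoh, the kinase Pim1, Cd27, the survival gene Mcl1, and the interferon-inducible Ifi209 and Ifi203.

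On the other side, Cd7, a surface receptor of T and NK cells, had 4 UMIs in 2 gate-positive members, against 98 UMIs in 16 innate-like members, log2 -3.39 (-5.29 to -1.98). Lgals3, which encodes galectin-3, had 3 UMIs in 2 gate-positive members and 64 UMIs in 11 innate-like members, log2 -3.19. Ramp1, a partner of the receptor for the neuropeptide CGRP, was found in 4 of 19 gate-positive and 21 of 28 innate-like members, log2 -2.63 (-3.87 to -1.60). It was also common in S100-low cells, with UMIs in 70.3% of them at 320 CPM. That level is nearer the 455 CPM of innate-like members than the 73.7 CPM of gate-positive members. Ly6c2, a surface marker of memory and innate-like T cells, was found in 1 gate-positive and 11 innate-like members, log2 -2.87. Plac8 had a log2 ratio of -3.31, with 43 of its 140 innate-like UMIs in 1 cell, and of -2.56 (-4.05 to -1.37) without the 3 exceptional cells, which left 74 UMIs. Irf8, a factor of dendritic cells, had the most extreme ratio at -4.77, but 25 and 33 of its 64 innate-like UMIs were in the 2 Siglech cells. Without the same 3 cells its 1 UMI in gate-positive members stood against 6 UMIs, while Cd7 stayed at -3.31, Lgals3 at -3.28 and Ramp1 at -2.60. Psap, a lysosomal protein gene, was at 0.069 without them and at -1.98 with them, and Ctsb, the protease cathepsin B, at -0.52 and -1.49. The other named lower genes, Klhdc2, Hmgn2, Magoh and Anxa2, had log2 ratios from -2.03 to -1.58.

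**Figure D2:**
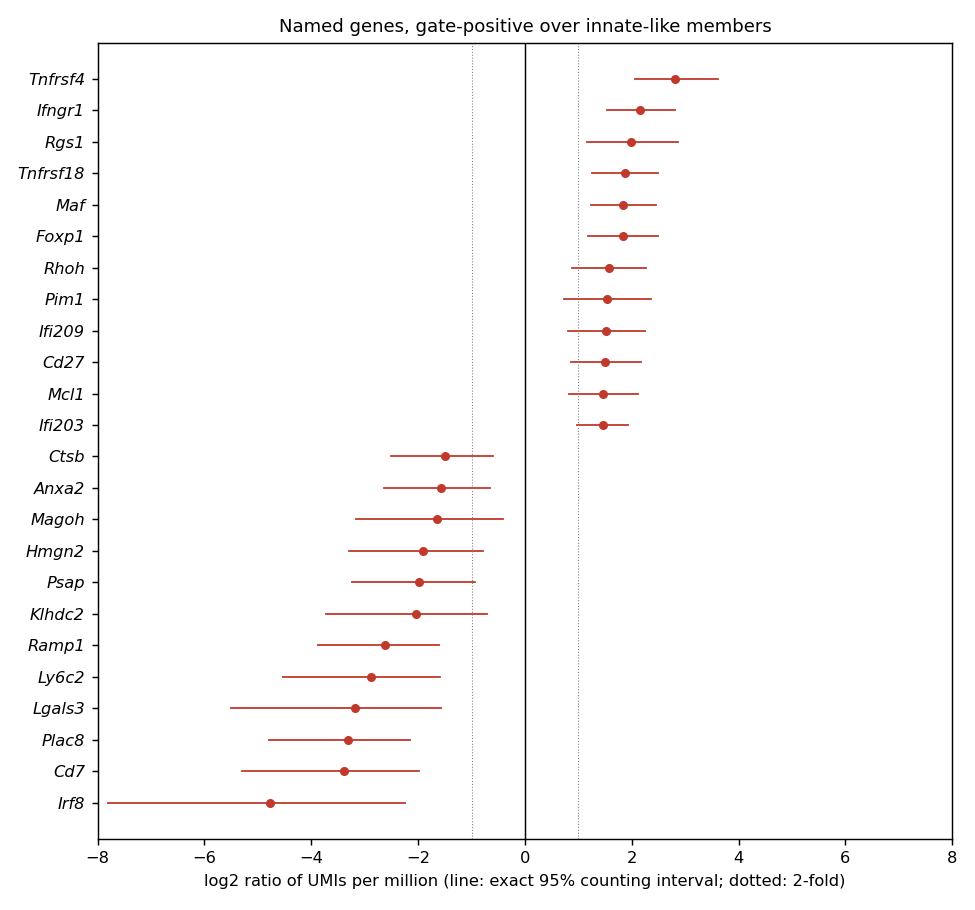
Log2 ratio of CPM (horizontal axis) in gate-positive over innate-like members for the 24 named genes, with exact 95% counting intervals as lines and 2-fold as dotted lines. Tnfrsf4 at 2.81 and Ifngr1 at 2.16 lead the genes higher in gate-positive members, and Irf8, Cd7, Plac8 and Lgals3 lead those lower.

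Gene lists followed the same division. Of the 15 Treg core genes that neither the rule nor the classes used, 5 were measured, 3 were past 2-fold higher (Ikzf2, Tnfrsf18 and Tnfrsf4) and 0 lower, with a median log2 ratio of 1.13, against -0.01 over all genes measured. Ikzf2, which encodes the Treg factor Helios, was at 893 CPM in gate-positive members and 408 CPM in innate-like members. The summed list was at 3084 CPM against 1390 CPM, log2 1.15 (0.93 to 1.37). This rested on the Lta-/- cells, where it was 1.40, whereas it was 0.12 in the Foxp3eGFP cells, of which 5 were gate-positive. The type 1 and cytotoxic list had 0 of 7 measured genes past 2-fold higher and 3 lower, Gzmc, Id2 and Ctsw, with a summed log2 ratio of -1.26 (-1.52 to -1.01). Gzmc came from 1 cell. Without the 3 exceptional cells the sum was -0.80, and Id2, an inhibitor of E proteins that promotes innate and effector lineages, was still at -1.35.

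The maturation and egress list had 4 of 15 measured genes past 2-fold higher in gate-positive members and 0 lower. They included the sphingosine receptor gene S1pr1, H2-Q7 and Slfn2, and the list's median log2 ratio was 0.56. Of the interferon response list, 1 of 4 measured genes was past 2-fold higher in gate-positive members, Ifi27l2a, at 3692 CPM against 1476 CPM, and 1 was lower, Bst2, at -1.39, with 52 of its 135 innate-like UMIs in 1 cell. The summed list was at 5893 CPM in gate-positive members and 3259 CPM in innate-like members, log2 0.85, mainly through Ifi27l2a. Depth differed between the classes, at a median of 4769 UMIs per gate-positive and 7321 per innate-like member, and its part in these ratios was not tested beyond the thinned values given further on. S100 genes themselves, which the rule used, gave 1289 CPM against 569 CPM for S100a4 and 1151 CPM against 1186 CPM for S100a6.

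The 37 members of neither class were set beside both. Against them, 13 of 869 genes were at least 2-fold higher in gate-positive members (1.5%) and 9 lower (1.04%). Itgb1 was at 442 CPM in gate-positive members and 1223 CPM in members of neither class, log2 -1.47 (-1.95 to -1.02), with UMIs in 14 of 19 and 34 of 37 cells. This rested on the Lta-/- cells, at 316 CPM in gate-positive members and 1545 CPM in members of neither class, whereas the Foxp3eGFP cells were at 733 CPM (24 UMIs in 5 cells) and 566 CPM (37 UMIs in 8 cells). Il7r was at 368 CPM in gate-positive members and 780 CPM in members of neither class, log2 -1.08. Maf, Tnfrsf18, Foxp1 and Ifngr1 were past 2-fold higher in gate-positive members, from 1.05 to 1.21. Of the Treg core list, 1 of 5 measured genes was higher and 0 lower.

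Innate-like members stood further from the members of neither class. Of 1301 genes, 38 were at least 2-fold higher in innate-like members (2.92%) and 29 lower (2.23%), or 25 and 25 without the 3 exceptional cells. Cd7 was found in 16 of 28 innate-like members and 3 of 37 members of neither class, log2 4.67 (3.08 to 6.97), and Ly6c2 in 11 and 1, log2 4.48. Of the type 1 and cytotoxic list, 4 of 8 measured genes were past 2-fold higher, Gzmc, which came from 1 cell, Ctsw, Id2 and Il2rb, a shared chain of the interleukin 2 and 15 receptors. Lower in innate-like members were Tnfrsf4 at -2.19 (-2.98 to -1.45), S1pr1 at -1.72 and Itgb1 at -1.71. Itgb1 was at 463 CPM in innate-like members and 1545 CPM in members of neither class among Lta-/- cells, and at 216 CPM and 566 CPM among Foxp3eGFP cells.

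The members as a whole were then described beside the S100-low cells. Of 5934 genes with enough UMIs, 142 were at least 2-fold higher in members (2.39%) and 326 lower (5.49%). Ccr2, a receptor that brings cells to inflamed tissue, had 74 UMIs in 25 of 84 members, against 19 UMIs in 11 of 3097 S100-low cells, log2 6.90 (6.16 to 7.71). Cxcr6 had a log2 ratio of 5.85, Cxcr3 of 5.04, Maf of 4.90 and Itgae of 4.56. Ccl5, an effector chemokine, was found in 12 members and had a ratio of 4.39. Tyrobp led this list at 6.93, but 7 of its 195 UMIs lay outside the 3 exceptional cells.

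These ratios describe the cells that the S100 genes picked and carry no test. Of the effector or recirculating Treg list, 5 of 6 measured genes were past 2-fold higher: the costimulator Icos, the adhesion genes Cd44 and Itgb1, and the factors Batf and Rora. The median of the list was 1.62, against -0.09 over all genes measured. Itgb1, the beta1 integrin chain, was found in 81.0% of members and 27.3% of S100-low cells, log2 3.17 (3.01 to 3.34). Of the S100, annexin and cytoskeleton list, 8 of 18 were higher and 0 lower, including Ahnak at 4.30, Tagln2 at 2.65 and Lgals1 at 2.10. Of the type 1 and cytotoxic list, 4 of 6 were higher: Il2rb, Id2, Runx3 and Ctsw. Il7r, the interleukin 7 receptor chain, was at 625 CPM in members and 206 CPM in S100-low cells.

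Genes of young thymocytes and of strong receptor signalling were lower in the members. Of the immature CD4 thymocyte list, 5 of 9 measured genes were past 2-fold lower (Cd24a, Satb1, Sox4, Marcks and Marcksl1) and 0 higher, with a median of -1.08. Sox4 was found in 15 of 84 members and 52.5% of S100-low cells, log2 -2.61. Of the strong T cell receptor signal list, 6 of 13 were lower and 0 higher, among them the orphan receptor genes Nr4a1 at -1.83 and Nr4a3 at -3.06. Arhgap20 had the lowest ratio of all named genes, with 3 UMIs in members against 3832 in S100-low cells, log2 -5.38. Bach2, a repressor that restrains effector differentiation, was at -2.57 and Ccr7, which guides maturing thymocytes to the medulla, at -1.99. The other named lower genes were Gsta4, Eno3, Ldhb, Chchd10, Ndrg3, BC005561, Itm2a and Tgfbr1, from -5.24 to -1.97.

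Gate-positive members were set beside cells that the Treg-gene limit kept out. These S100-high Treg-gene-high cells numbered 33, and the 20 of them with Foxp3 or Il2ra UMIs were used for the comparison. Among 637 genes, 5 were at least 2-fold higher in gate-positive members (0.785%) and 14 lower (2.2%). Ccl5 was at 138 CPM in gate-positive members and 632 CPM in those 20 cells, log2 -2.19, where 40 of their 75 UMIs came from 1 cell. Itgb1 was at 442 CPM in gate-positive members and 1104 CPM in the 20 cells, log2 -1.32 (-1.83 to -0.83), and the costimulator Icos was at -1.05. The higher genes were Ran, Foxp1, H2afj, Eif4a1 and Thy1, from 1.01 to 1.21, among which Foxp1 was also higher in gate-positive than in innate-like members. Of the Treg core list 0 of 5 measured genes were past 2-fold, with a median log2 ratio of 0.15, against -0.0049 over all genes measured. The sum of the list had the opposite sign, at 3084 CPM in gate-positive members and 4414 CPM in the 20 cells, log2 -0.52 (-0.72 to -0.32).

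The share of members was then compared between the genotypes. Members made up 62 of 2244 Lta-/- cells (2.76%, 2.12% to 3.53%) and 22 of 2209 Foxp3eGFP cells (0.996%, 0.625% to 1.5%), a ratio of 2.77 (1.68 to 4.74). The counts differed most among cells with few S100 UMIs, although the difference between ranges was not tested. At sums of 3 to 11 there were 42 Lta-/- cells and 8 Foxp3eGFP cells, a ratio of 5.17 (2.40 to 12.7). At sums of 12 or more there were 20 and 14 cells, a ratio of 1.41 (0.676 to 3.01). Just below the threshold the counts were alike, with 4 Lta-/- and 5 Foxp3eGFP cells at a sum of 2 and 35 and 27 cells at a sum of 1. The median S100 sum was 7 in Lta-/- members and 20 in Foxp3eGFP members. The bounds of these ranges were chosen after the values were seen. Per 10000 UMIs of each cell, the median S100 sum was 13.8 in Lta-/- and 20.3 in Foxp3eGFP members.

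**Figure D3:**
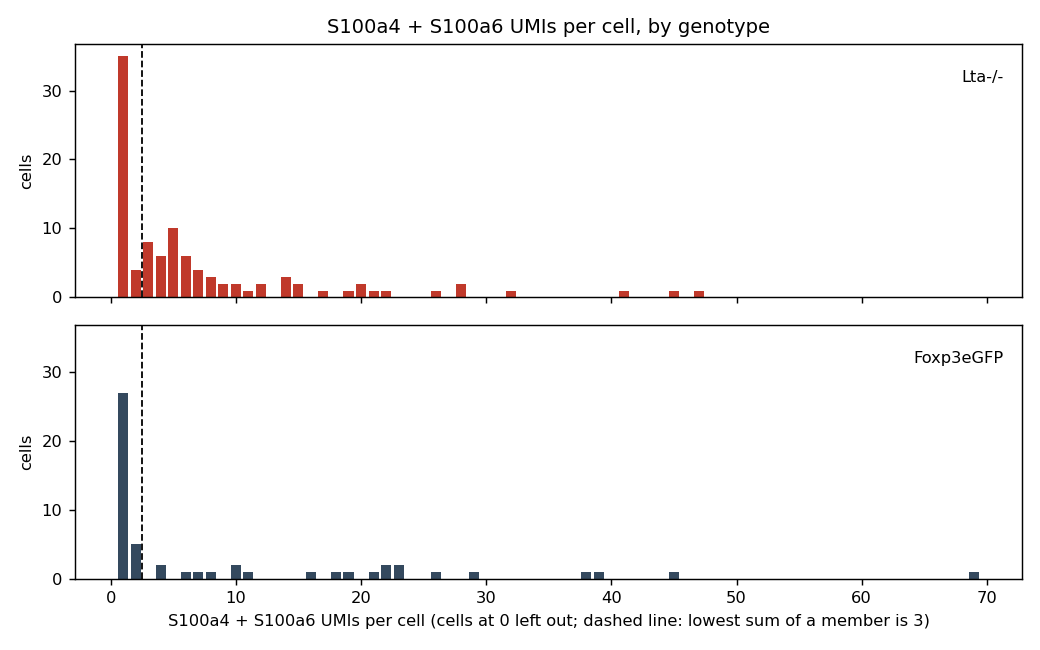
Number of cells (vertical axis) at each sum of S100a4 and S100a6 UMIs (horizontal axis) among cells that meet the rest of the rule, Lta-/- above and Foxp3eGFP below, with cells at a sum of 0 left out. Between sums of 3 and 11 there are 42 Lta-/- cells and 8 Foxp3eGFP cells, and at 12 or more the counts are 20 and 14.

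The makeup of the members by class could not be told apart between the genotypes at these numbers. Gate-positive cells were 14 of 62 Lta-/- members (22.6%) and 5 of 22 Foxp3eGFP members (22.7%). Innate-like cells were 19 of 62 (30.6%, 19.6% to 43.6%) and 9 of 22 (40.9%, 20.7% to 63.6%), a ratio of 0.749 (0.323 to 1.88). In the 14 gate-positive Lta-/- members the S100 sums ran from 3 through a median of 8.5 to 32, and in the 5 gate-positive Foxp3eGFP members they were 69, 19, 16, 7 and 4. These ranges overlapped.

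Within the members, Lta-/- cells differed from Foxp3eGFP cells in few genes. The S100 sum also differed, at a median of 7 in Lta-/- and 20 in Foxp3eGFP members. The gene and list ratios given for the genotypes are not matched for it. Of 1664 genes with at least 50 UMIs, 50 were at least 2-fold higher in Lta-/- members (3%) and 23 lower (1.38%). The 5 largest ratios belonged to Tyrobp, Irf8, Fcer1g, Cd74 and Klrd1, and all 5 drew UMIs from the 3 exceptional cells. Tyrobp, with 0 UMIs in Foxp3eGFP members, had 195 UMIs in Lta-/- members and 7 without those cells. Irf8 was at 4.10 with them and 1.32 (-0.96 to 4.57) without them. Cd74 was at 3.31 with them and 0.15 without them. Fcer1g, the signalling chain of Fc receptors, had 100 UMIs in Lta-/- members with them and 48 without them, against 3 in Foxp3eGFP members. Klrd1, found in 11 Lta-/- members and 1 Foxp3eGFP member, was at 3.17 with them and 2.19 (0.70 to 4.15) without them.

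H2-Q7, which encodes the Qa-2 class Ib molecule, had the widest support. It was found in 57 of 62 Lta-/- members and 15 of 22 Foxp3eGFP members, at 905 CPM against 173 CPM, log2 2.39 (1.87 to 2.95). Its ratio was 2.13 in gate-positive, 1.86 in innate-like and 2.93 in the remaining members. Camk2d, a calcium and calmodulin dependent kinase gene, was found in 31 of 62 Lta-/- and 2 of 22 Foxp3eGFP members, log2 2.52 (1.22 to 4.20). In S100-low cells Camk2d was at -0.34, the opposite direction. Itm2a had a ratio of 2.27 with 39 of 94 Lta-/- UMIs in 1 cell. Gcc2, Dap and Etnk1 had ratios from 2.06 to 2.18, although Dap was at -0.80 in gate-positive members alone.

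The lower genes included a receptor of migrating cells and interferon-induced genes, although the interferon response list as a whole summed to -0.09 (-0.21 to 0.03). Ccr2 was found in 11 of 62 Lta-/- members (17.7%) and 14 of 22 Foxp3eGFP members (63.6%), log2 -1.51 (-2.23 to -0.81), and was lower in each of the 3 classes. With cells thinned to 3000 UMIs the shares were 10.5% and 40.9%. Ccr9-high cells had Ccr2 UMIs in 0.680% of cells. Cxcr6 was likewise found in fewer Lta-/- members, 25.8% against 59.1%, but its summed ratio was -0.25 with an interval that spans 0. Cxcr3 went the other way, at 199 CPM in Lta-/- members and 83.9 CPM in Foxp3eGFP members, log2 1.25 (0.45 to 2.13). Rora, a factor of innate and type 17 lymphocytes, had 18 UMIs in 14 Lta-/- members, against 34 UMIs in 12 Foxp3eGFP members, log2 -1.88. Isg15, an interferon-induced modifier, was found in 18 of 62 Lta-/- and 16 of 22 Foxp3eGFP members, log2 -1.76 (-2.37 to -1.16). Its ratio was -0.11 in gate-positive, -2.64 in innate-like and -1.98 in the remaining members. It was also lower in Lta-/- S100-low cells, at -0.69. The other named lower genes, Bzw2, Slfn5, Prmt1, Rexo2, Tuba1b, Ifi208, Tmem256, Ube2s and Ifi47, were between -1.60 and -1.09, with Tmem256 at 0.37 in gate-positive members alone. Ube2s was at -2.35 in innate-like members and at 0.62 in members of neither class.

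Most of these ratios were smaller in the S100-low cells, where 0.381% of 9716 genes were past 2-fold higher and 0.371% lower, or 0.751% in all. Of the 12 named higher genes, 5 had the same direction there and 1, Fcer1g, was past 2-fold. Tyrobp was past 2-fold in the opposite direction, with 9 UMIs in Lta-/- and 40 UMIs in Foxp3eGFP S100-low cells, log2 -2.15 (-3.38 to -1.08). Of the 12 named lower genes, 9 had the same direction and 1, Ccr2, was past 2-fold, where Lta-/- cells held 2 UMIs against 17 in Foxp3eGFP cells. No interaction was tested, so a difference in ratio between members and S100-low cells is given as values only. The named genes were chosen for their large ratios in members. Members held 562028 UMIs and S100-low cells 17270898, at the same minimum of 50 UMIs per gene. These ratios and shares therefore cannot show that the genotypes differ more in members.

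**Figure D4:**
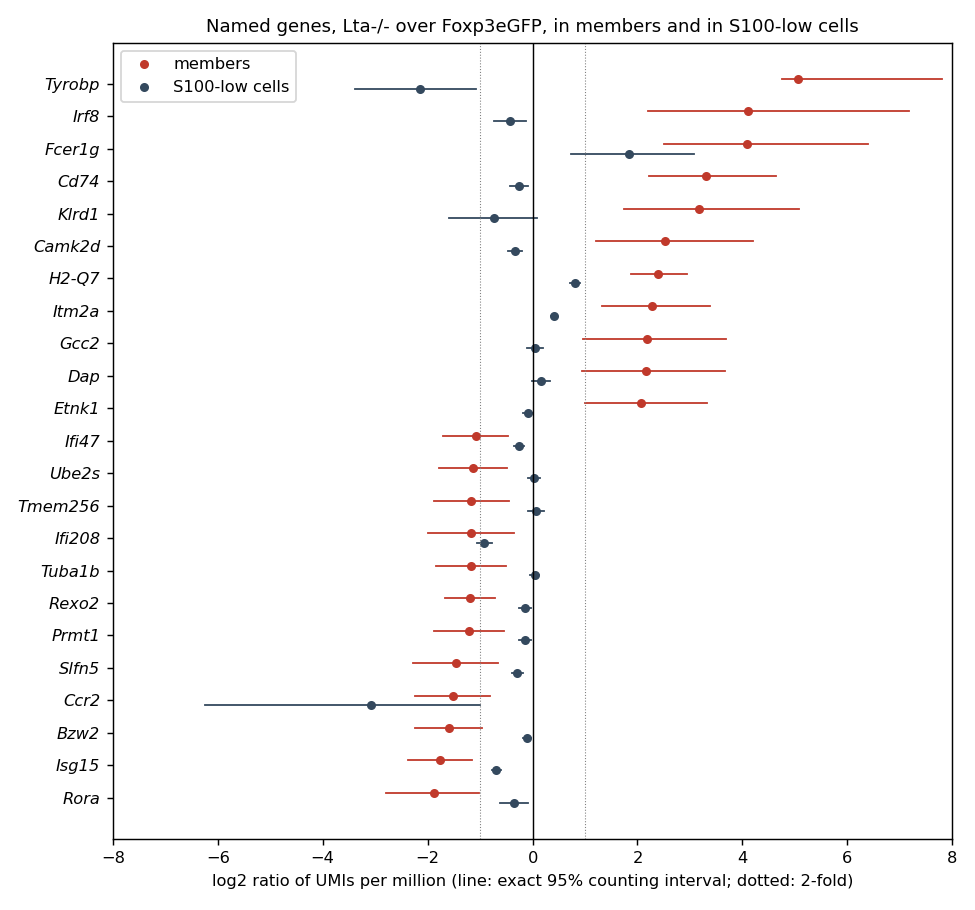
Log2 ratio of CPM in Lta-/- over Foxp3eGFP cells (horizontal axis) for 23 genes chosen by their ratio in members, in members and in S100-low cells, with exact 95% counting intervals as lines cut at the edge of the plot. Tyrobp has 0 UMIs in Foxp3eGFP members, so its point is a bound from a floor of 3 counts. H2-Q7 is at 2.39 in members and 0.82 in S100-low cells.

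Gene lists were then compared between the genotypes within the members. The summed ratio had an interval that left out 0 in 15 of 23 lists, 11 higher and 4 lower in Lta-/- members, although these intervals cover counting error in 1 mouse each. Of the Treg core list, 2 of 5 measured genes were past 2-fold higher in Lta-/- members and 0 lower. These were Ikzf2 at 1.19 and Izumo1r, the folate receptor 4 gene, at 1.10, and the median of the list was 0.44, against -0.01 over all genes measured. Its summed ratio, 0.47 (0.28 to 0.67), was 1.44 (0.99 to 1.92) in gate-positive members, where the 5 Foxp3eGFP cells held 46 UMIs, 0.15 in innate-like members and 0.059 in members of neither class, while S100-low cells were at -0.30. Of the maturation and egress list, 2 of 16 were higher, among them H2-Q7, and 0 lower, with a summed ratio of 0.36 (0.28 to 0.44). Of the immature CD4 thymocyte list 0 of 3 were past 2-fold, with a summed ratio of 0.51 (0.19 to 0.84). In that list 1 cell held 58 of the 299 Lta-/- UMIs, and 1 cell held 21 of the 108 Foxp3eGFP UMIs. The innate-like definers summed to 1.99 (1.62 to 2.38), and to 0.87 without the 3 exceptional cells. The type 2 list was at -0.49 (-0.77 to -0.20), the type 17 list at -1.93 (-2.46 to -1.42) and the gamma-delta T list at -1.11 (-1.56 to -0.67), the last with 0 measured genes. Rora was the 1 measured gene of the type 17 list. In that list the top Foxp3eGFP cells of the gate-positive, neither and innate-like classes held 19, 14 and 10 of 94 UMIs. For gamma-delta T, 1 cell held 48 of the 91 Foxp3eGFP UMIs and another held 22, while the top Lta-/- cell held 20 of 82. Of the effector or recirculating Treg list, 1 of 6 was higher, Cxcr3, and 2 lower, Ccr2 and Rora, with a summed ratio of -0.04 (-0.22 to 0.14). Of the interferon response list, 1 of 10 was higher and 1 lower, Bst2 and Isg15, with a summed ratio of -0.09 (-0.21 to 0.03). Bst2, also a marker of plasmacytoid dendritic cells, had 52 of its 151 Lta-/- UMIs in 1 cell. Of the S100, annexin and cytoskeleton list, 0 of 18 were past 2-fold either way, and the sum was at 27018 CPM in Lta-/- and 27023 CPM in Foxp3eGFP members. Markers of other cells also differed. The B or plasma cell list had a summed ratio of 1.32 (0.79 to 1.89), with Ighm as its 1 measured gene. The myeloid or dendritic list summed to 1002 CPM in Lta-/- members, with 10 of 14 genes detected, against 184 CPM with 4 detected in Foxp3eGFP members, while Csf1r, Adgre1, Xcr1 and C1qc were at 0 in both. The NK cell or ILC list summed to 105 CPM against 26.2 CPM, and the dissociation stress list to 4144 CPM against 5156 CPM. Their part in the ratios was not tested beyond leaving out the 3 exceptional cells. The lymphotoxin and TNF list held 1 measured gene, Ltb, at 0.21 (-0.09 to 0.51).

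The position of H2-Q7 was set beside that of the deleted gene, after its ratio had been seen. Lta lies at chr17:35203165-35205578 and H2-Q7 at chr17:35439140-35443773 on build GRCm38, 234 kb apart within the MHC. H2-Q6, 219 kb from Lta, was at 1.54 (0.50 to 2.75) in members. H2-Q6 and H2-Q7 are near-identical copies, and reads could have been split between them, so the pair is uncertain gene by gene. Of 16 genes measured in members within 1000 kb of Lta, 3 were past 2-fold between the genotypes (18.8%), against 4.39% of all genes: H2-Q7, H2-Q6 and Abcf1, the last at -1.04. This share counts H2-Q7, which prompted the comparison, and H2-Q6, which may share its reads, so it is description only. Ltb, 6.86 kb from Lta, and H2-D1, 57.5 kb away, were at 0.21 and 0.47.

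**Figure D5:**
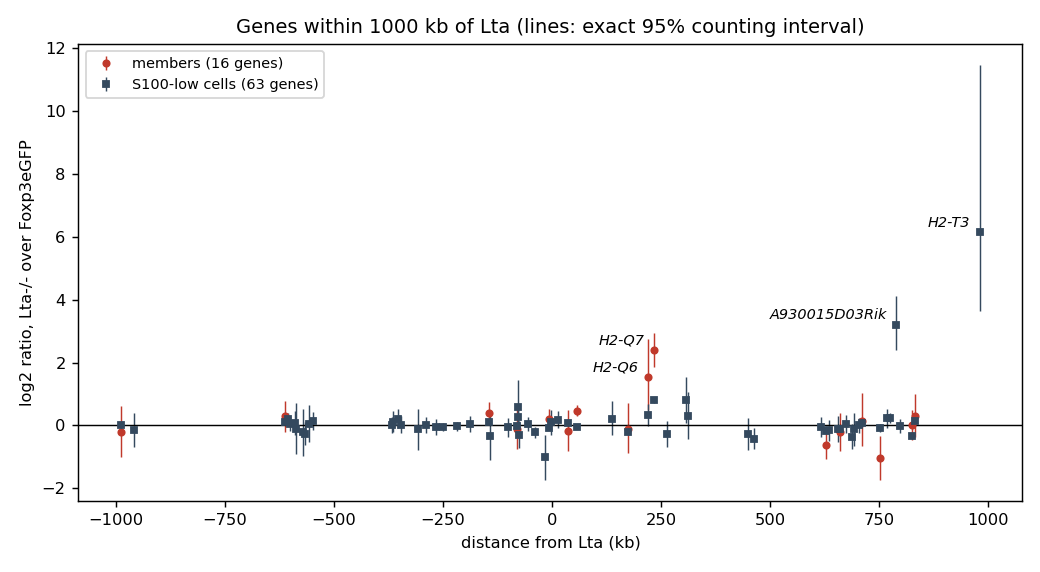
Log2 ratio of CPM in Lta-/- over Foxp3eGFP cells (vertical axis) against distance from Lta in kb (horizontal axis) for genes with at least 50 UMIs, in members (16 genes) and in S100-low cells (63 genes). Lines are exact 95% counting intervals. Most genes lie near 0, H2-Q7 is at 2.39 in members, and H2-T3 is at 6.15 in S100-low cells.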

How the data were processed

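Gene and hashtag counts were measured by droplet 3 prime single-cell RNA sequencing in 1 capture of cells from 2 mice. The deposited matrix holds UMI counts, 1 whole number for each gene in each barcode, with no normalization as judged from the values. Per the submitters' processing notes, reads were processed with Cell Ranger 6.0.1 on build mm10, which is GRCm38. The sources used here do not state aligner settings, annotation release or cell calling. The number of unused columns of per-sample values was 0.

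The members, gene lists and classes were chosen with earlier results of these data known. For each class of cells, raw counts were pooled and scaled to 1000000 UMIs (CPM). Ratio intervals are exact and conditional on the total (binomial), those of shares follow Clopper and Pearson, and those of levels the Poisson distribution, all at 95%. A class with 0 UMIs was set to a floor of 3 counts, which gives a bound. Genes were measured at 50 UMIs over both classes, or at 10 UMIs expected in members for members over S100-low cells, and counted past 2-fold. UMIs were pooled over cells and the intervals leave out variation between cells and mice, so they are too narrow for cells or mice. No p-value was computed. Named genes were the 12 largest ratios in each direction with at least 50 UMIs, 50 CPM in the higher class and UMIs in 5 of its cells. Genes of the rule or the gate were left out, as were, in comparisons between the classes, the 8 genes that defined the innate-like class, and throughout mitochondrial, ribosomal, predicted, sex-linked and receptor segment genes. Genes named outside that rule were chosen from the lists or after their values were seen. Some genes that the rule or the lists hold are not reported here.

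Cells with both hashtags were removed. From their number, 185.02 assigned cells (4.15%) would be doublets of 1 genotype, or 3.49 of the members, and no caller based on expression was run. Members totalled 562028 UMIs, 371377 in Lta-/- and 190651 in Foxp3eGFP cells, and 3 had over 15000. Thinning to 3000 UMIs left out 5 Lta-/- members and 0 Foxp3eGFP members. Ratios and intervals were run on simulated pooled counts drawn from a Poisson distribution, without variation between cells or mice. That run cannot show how the intervals behave where cells or mice vary. Python 3.11.15, numpy 2.4.6, scipy 1.17.1, pandas 2.3.3 and matplotlib 3.10.9 were used. Promoter sequences came from RefSeq.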

Additional observations from a re-analysis of the deposited data

How the results depend on the processing

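The log2 ratio of the share of members, 1.47 in favour of Lta-/- cells, kept its direction under every alternative and fell within the main interval under all but 1. Thinned to 3000 UMIs it was 1.03, and at an S100 minimum of 12, chosen after seeing the data, 0.49. The log2 ratio of innate-like shares ran from -0.59 to 0.067, and its interval included 0 each time. The Treg core sum of gate-positive over innate-like members, 1.15, was 0.84 with 2 gate UMIs, 0.86 thinned, 1.40 in Lta-/- cells and 0.12 in Foxp3eGFP cells. The type 1 and cytotoxic sum, -1.26, was -1.79 thinned, -1.59 without the deepest 5% of members, -1.64 in Lta-/- cells, -0.50 in Foxp3eGFP cells, -0.70 without its top cell and -0.80 without the 3 cells with Siglech or Ncr1, an alternative chosen after seeing the data.

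Counts of genes moved with the threshold. Between the classes, 14 were higher and 12 lower at 100 UMIs, and 113 and 109 at 1.5-fold. Between the genotypes, 14 were higher and 4 lower at 100 UMIs, and 177 and 133 at 1.5-fold. For members over S100-low cells, 442 were higher and 895 lower at 1.5-fold, and for gate-positive members over Treg-gene-high cells 0 and 3 at 100 UMIs and 27 and 56 at 1.5-fold. Over members of neither class, gate-positive members had 6 higher and 2 lower at 100 UMIs and 68 and 59 at 1.5-fold, and innate-like members 12 and 8, and 122 and 137. Without the 3 cells, innate-like members had 25 higher.

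Reversed values between the classes were Tnfrsf18 (-0.62), Cd27 (-1.31), Psap (1.08) and the myeloid or dendritic list (0.28) in Foxp3eGFP cells alone, and Psap (0.069) and that list (0.82) without the 3 cells. Between the genotypes they were the innate-like definers (-3.91), the gamma-delta T list (1.52), Dap (-0.80) and Tmem256 (0.37) in gate-positive members alone. There the definers had 2 Lta-/- UMIs against 13 Foxp3eGFP UMIs, 12 of them in 1 cell. The gamma-delta T value was a bound from the floor, with 20 UMIs in 1 Lta-/- cell against 0 UMIs. The cause was not tested. No paired analysis was possible because each genotype is 1 mouse and the 2 libraries are the RNA and hashtags of the same cells. With 5 gate-positive and 9 innate-like Foxp3eGFP members, few genes reach 50 UMIs.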

Other observations

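Members also carried RNA of other lymphocyte programmes. Ighm, the heavy chain gene of IgM, had 125 UMIs in 44 of 84 members, against 1017 UMIs in 622 of 3097 S100-low cells, log2 1.92 (1.64 to 2.19). The B cell genes Cd79a and Ms4a1 were at 0 UMIs in the members. The gamma-delta T list was concentrated in few cells, with 48 UMIs in 1 innate-like Foxp3eGFP member and all 20 UMIs of the gate-positive members in 1 Lta-/- cell. It summed to 82 UMIs in Lta-/- and 91 UMIs in Foxp3eGFP members. The type 17 list was at 129 CPM in Lta-/- and 493 CPM in Foxp3eGFP members, log2 -1.93, with 19 of the 94 Foxp3eGFP UMIs in 1 cell. Within it, Tmem176a had 8 UMIs in 4 Lta-/- members and 26 UMIs in 6 Foxp3eGFP members. Serpinb1a had 0 UMIs in 62 Lta-/- members and 15 UMIs in 5 of 22 Foxp3eGFP members.

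The largest genotype ratio near Lta was outside the members. H2-T3, 980.0 kb from Lta, had 71 UMIs in Lta-/- and 1 UMI in Foxp3eGFP S100-low cells, log2 6.15 (3.63 to 11.5), and 0 UMIs in members. A930015D03Rik, 789 kb from Lta, had 129 UMIs in Lta-/- and 14 in Foxp3eGFP S100-low cells, log2 3.21, and 3 and 0 in the members. Of 63 genes within 1000 kb of Lta, these 2 were past 2-fold in S100-low cells (3.17%), against 0.751% of all genes. The cause was not tested.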
